A study of Trachinotus ovatus with 6 samples.

Results

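In golden pompano, Trachinotus ovatus, a teleost of warm seas, 246 of 22062 genes differed by 4 times or more among the ovaries as deposited. Each kept nearly the same level in every testis. For 241 of them ovary 1 was the lowest, and over all 246 ovaries 2 and 3 differed by a median of 1.47 times. After the libraries were scaled by median ratios, 16 of the 246 still differed by 4 times or more. RNA was sequenced from the ovaries of 3 females and the testes of 3 males, each gonad from a different fish, kept at an experimental base in Shenzhen. The labels give no treatment other than removal of the gonad and state neither the age, the maturity stage nor the strain of the fish, so ovaries 1, 2 and 3 are separate females that nothing else tells apart. Values are FPKM (fragments scaled by gene model length and by the size of the library), as the authors deposited them. A gene was a member when each ovary and each testis reached at least 2 FPKM, the highest ovary was at least 4 times the lowest, the highest testis was at most 1.5 times the lowest, the ovary mean lay above 0.1 and under 10 times the testis mean, and the 6 libraries were not all at 100 FPKM or more. Members were thus chosen by their measured FPKM in all 6 libraries, so their levels, and every count of them below, are a description and support no statement about the gonads. Identifiers in the table come without gene names, so what the members encode is not reported and genes are called by their position on the linkage groups of the deposited table.

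A fish ovary is largely made of oocytes, each enclosed by granulosa and theca cells that make steroid hormones. Oocytes store RNA and protein for the embryo, and follicles of several stages can lie side by side in one ovary. A testis holds dividing and differentiating male germ cells, together with Sertoli cells that support them and Leydig cells that make androgens. In whole tissue, fewer cells of a type and less RNA per cell cannot be told apart.

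Over all genes the ovaries stood apart from the testes, and ovary 1 lay furthest from them. The median over all genes was 0.463, 0.947 and 0.723 FPKM in ovaries 1, 2 and 3, against 5.1 to 6.0 FPKM in the testes. In ovary 1 the 100 most abundant genes held 71.5% of the summed FPKM, against 55.1% in ovary 2, 62.2% in ovary 3 and 39.2% to 41.5% in the testes. Among the 6695 genes at 2 FPKM or more in all 6 libraries, the median in ovary 1 was 9.05 FPKM, against 16.7 in ovary 2, 14.2 in ovary 3 and 15.0 to 15.9 in the testes. Ovary 2 exceeded ovary 1 by a median of 1.67 times over these genes. Read depth is unknown, since the table holds no counts. Nothing in the labels ties this to a batch, and a female that differs and a library that differs cannot be told apart.

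Most members shared one profile, low in ovary 1 and several times higher in ovaries 2 and 3. The order ovary 2, then ovary 3, then ovary 1 was found in 226 of the 246 (91.9%), and in 68.1% of the 6695 genes at 2 FPKM or more in all 6 libraries. Ovary 1 was the lowest ovary for 241 members (98.0%), ovary 3 for 4 and ovary 2 for 1. Ovary 1 was also the lowest for 81.6% of the 6695 genes. The median member stood at 3.45 FPKM in ovary 1, 16.1 FPKM in ovary 2 and 12.2 FPKM in ovary 3, and at 19.4, 17.7 and 19.2 FPKM in the testes. Among the 226 genes, ovary 3 lay nearer to ovary 2 than to ovary 1 on a log scale in 221. Its median position was 75.8% of the way from ovary 1 to ovary 2. Together the members made up 0.215% of all FPKM of ovary 1, 0.983% of ovary 2 and 0.665% of ovary 3, and 1.28% to 1.37% of that of the testes.

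**Figure D1:**
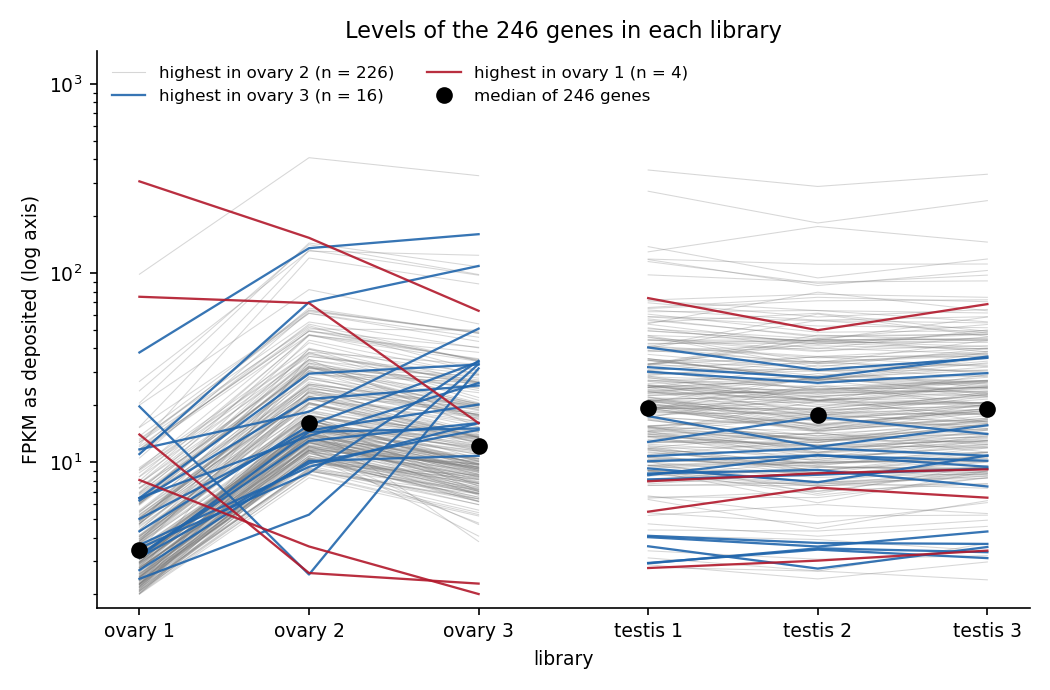
FPKM of each of the 246 genes (1 line per gene, joined within a tissue) in the 3 ovaries and the 3 testes, on a log axis, coloured by the ovary with the highest value; black dots are medians over the genes. The median is 3.45 FPKM in ovary 1 and 16.1 and 12.2 FPKM in ovaries 2 and 3, while the testis medians lie between 17.7 and 19.4 FPKM.

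The spread among ovaries, the highest divided by the lowest, began at 4.01 by the rule and reached 14.0, with a median of 4.66. It lay under 5 in 159 members, from 5 to under 6 in 51, from 6 to under 8 in 23, and at 8 or more in 13. A spread of 4 or more was found in 4.87% of the 6695 genes at 2 FPKM or more in all 6 libraries (326 genes). Of those 326, the testes differed by more than 1.5 times in 75, and 5 more lay outside the limits on the ratio of means. Among the 80 that were not members, 72 were also highest in ovary 2, 6 in ovary 3 and 2 in ovary 1. Steady testes were common, since 79.2% of the 6695 genes varied by 1.5 times or less among them. The members' own testis spread ran from 1.02 to 1.49, with a median of 1.19.

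Values on each side of the limits were close. On linkage group 16 (20638986 to 20651812) a member had 2.26, 9.06 and 5.59 FPKM in ovaries 1, 2 and 3, a spread of 4.01. On linkage group 9 (2415783 to 2438014) a gene with 2.43, 9.7 and 6.14 FPKM, a spread of 3.996, was left out, as was one on linkage group 16 (9487825 to 9495578) with 3.995. The other member nearest to the limit, on linkage group 1 at 33712508, had 4.01. For the testis limit, a member on linkage group 18 (3497104 to 3513269) was at a testis spread of 1.49. One on linkage group 3 (36631773 to 36638197), also at 1.49, was kept too. The nearest genes left out by it, on linkage groups 16 (13345470 to 13358874) and 24 (13204721 to 13212747), both had a testis spread of 1.504, with ovary spreads of 5.8 and 7.18.

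The member with the largest spread was SCSFRI_TO_T_00043020, on linkage group 22 (4386773 to 4392349), whose span no other gene overlaps. It had 2.6 FPKM in ovary 1, 36.3 FPKM in ovary 2 and 27.9 FPKM in ovary 3, with 29.2, 30.4 and 30.7 FPKM in testes 1, 2 and 3. Values of the other loci are given in the same order. Ovary 1 alone was low, by 14.0 times against ovary 2, while ovary 2 lay just above the testes and ovary 3 just below them. The next among those highest in ovary 2, on linkage group 11 (8195664 to 8200270), was at 2.26, 24.1 and 14.6 FPKM in the ovaries and 14.5, 11.6 and 13.5 FPKM in the testes. On linkage group 17 (9763044 to 9771337) a more abundant gene had 12.3, 120.3 and 87.8 FPKM in the ovaries and 60.7, 48.7 and 49.6 FPKM in the testes. In both, every testis lay inside the range of the ovaries as deposited, above ovary 1 and below ovary 2. Median-ratio scaling, described below, divides the ovaries by 0.314 to 0.669 and the testes by 2.03 to 2.21. Positions of ovaries against testes given for these loci as deposited therefore need not hold on that scale.

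Among the members highest in ovary 2, the one with the highest mean over the libraries lay on linkage group 10 (8831806 to 8838972). It had 98.7, 407.9 and 327.7 FPKM in the ovaries and 351.2, 287.4 and 333.5 FPKM in the testes. Its spread of 4.13 was just above the limit. Next in mean, at 13.3, 55.2 and 40.3 FPKM in the ovaries, came a gene on linkage group 22 (16635611 to 16637580). It stood at 271.2, 184.3 and 241.8 FPKM in the testes, so every testis exceeded every ovary. The third, on linkage group 3 (29993685 to 30005322), was at 23.9, 141.5 and 98.4 FPKM in the ovaries and 138.1, 94.4 and 118.8 FPKM in the testes, and its spread of 5.93 was above the members' median. The first of these carried 407.9 of the 6477 FPKM that all members summed to in ovary 2.

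In 16 members (6.5%, against 17.3% of the 6695 genes) ovary 3 was highest, with ovary 1 the lowest in 15 of them. SCSFRI_TO_T_00074032, on linkage group 22 (7991935 to 8023384), was at 2.42, 5.29 and 33.1 FPKM in the ovaries and 10.1, 10.9 and 10.2 FPKM in the testes. Here ovary 3 alone was high, and as deposited ovaries 1 and 2 both lay under every testis. Its span overlaps those of 3 other genes. A gene on linkage group 2 (32953049 to 32956743) was at 19.7, 2.55 and 31.4 FPKM in the ovaries, against 8.55, 10.9 and 9.47 FPKM in the testes. It was the one member that was lowest in ovary 2. On linkage group 3 (36478937 to 36482907) a gene had 11.1, 70.3 and 109.2 FPKM in the ovaries and 10.8, 11.9 and 10.8 FPKM in the testes. Its ovary 1 was thus at the testis level as deposited, with ovaries 2 and 3 above it. After quantile normalization its ovary 1 too was above the testes, at 19.2 against 5.86 to 7.69.

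A further pair of the members highest in ovary 3 was named for its abundance. The locus on linkage group 18 (12980743 to 12995391) was at 38.1, 135.6 and 160.7 FPKM in the ovaries, against 12.8, 17.4 and 14.1 FPKM in the testes. Its ovary mean was 7.55 times its testis mean, the highest ratio of any member. The locus on linkage group 9 (24140555 to 24143821) was at 6.47, 29.4 and 32.9 FPKM in the ovaries and 31.8, 28.0 and 36.2 FPKM in the testes. For it, as deposited, ovaries 2 and 3 lay within the testis range and ovary 1 far below it.

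Only 4 members were highest in ovary 1, and in all of them ovary 3 was the lowest. SCSFRI_TO_T_00055689, on linkage group 9 (28333285 to 28385982), was at 14.0, 2.6 and 2.28 FPKM in the ovaries and 2.76, 3.02 and 3.41 FPKM in the testes, so that ovary 1 was the high library. SCSFRI_TO_T_00002388, on linkage group 16 (23549500 to 23645771), was at 305.8, 153.8 and 63.2 FPKM in the ovaries and 73.8, 49.9 and 68.6 FPKM in the testes. Its span overlaps those of 5 other genes. A locus on linkage group 20 (8193005 to 8197335) was at 75.04, 69.5 and 16.1 FPKM in the ovaries, against 7.94, 8.75 and 9.18 FPKM in the testes, which made ovary 3 the one that was low. This locus overlaps 2 other genes, at 1999, 1823 and 2129 FPKM and at 1.26, 6.37 and 149.9 FPKM in the ovaries. Whether it shares reads with them was not tested. The last, on linkage group 1 (33712508 to 33714365), was at 8.06, 3.59 and 2.01 FPKM in the ovaries and 5.48, 7.34 and 6.5 FPKM in the testes. As deposited, ovary 1 was thus the highest ovary in these genes although it was the lowest for 81.6% of the 6695 genes. After median-ratio scaling it was the highest ovary for 59.4% of the 6695 genes.

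**Figure D2:**
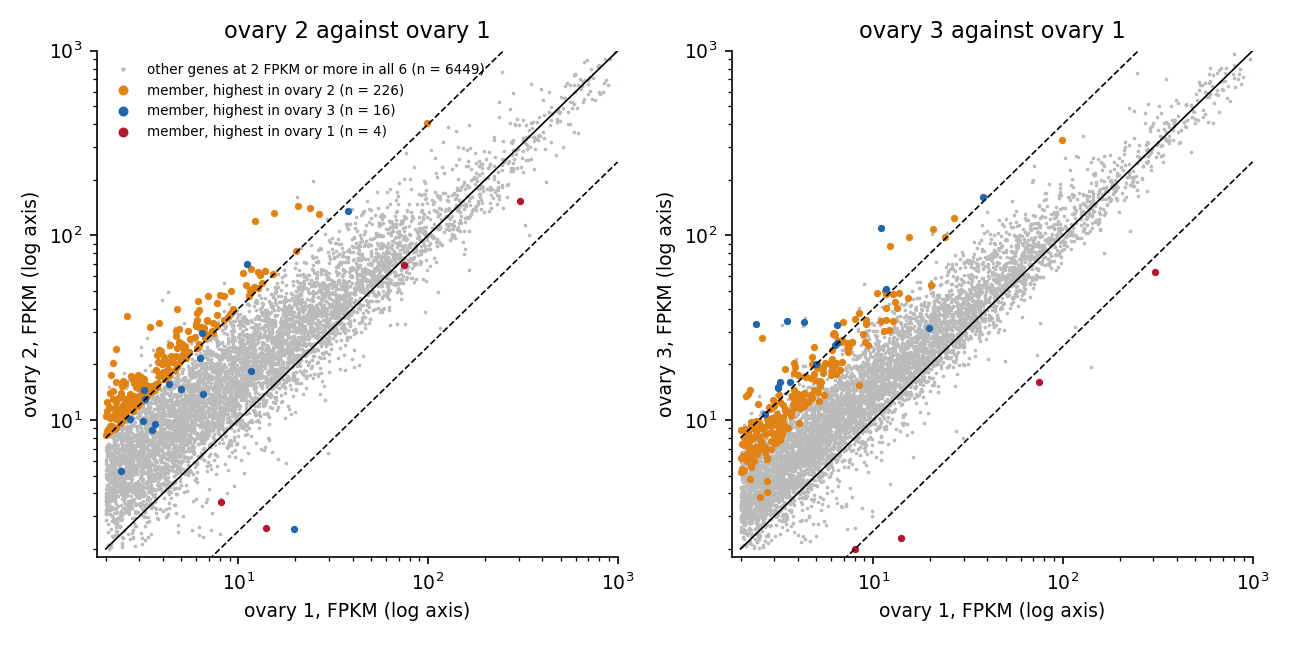
FPKM in ovary 2 (left) and ovary 3 (right) against ovary 1, log axes cut at their upper end, for the 6695 genes at 2 FPKM or more in all 6 libraries; grey points are the 6449 that are not members, coloured points are members by their highest ovary, the solid line marks equal values and dashed lines a ratio of 4. The grey cloud itself lies above the line of equal values, by a median of 1.67 times for ovary 2 and 1.45 times for ovary 3, and most members form its upper edge.

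For most members a spread of 4 or more rested on ovary 1, by whose value they were also chosen. With ovary 1 left out, 4 of the 246 still differed by 4 times or more between ovaries 2 and 3, while 137 differed by 1.5 times or less, with a median of 1.47. Ovary 2 over ovary 3 had a median of 1.43 in the members, against 1.15 in the 6695 genes. Most members were chosen with ovary 2 as their highest ovary, which favours a higher ratio, so nothing is read from it. With ovary 2 left out 56 kept a spread of 4 or more, and with ovary 3 left out 232 did. The whole rule on the remaining 5 libraries found 5 genes without ovary 1, 4 of them members, against 56 without ovary 2 and 232 without ovary 3. Leaving out a testis gave 248 to 311 genes.

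The libraries were also put on one scale by median ratios. Each library was divided by the median ratio of its genes to their geometric mean over libraries. Over the genes above 0 in all 6 libraries, the factor of ovary 2 was 2.13 times that of ovary 1, and that of ovary 3 was 1.64 times. After this scaling 16 of the 246 members kept an ovary spread of 4 or more, which 1.21% of the 6695 genes at 2 FPKM or more did. The median spread of the members was 2.27, and its lowest value was 1.88. Ovary 1 remained the lowest ovary for 237 members, although over the 6695 genes it was then the lowest for 28.3% and the highest for 59.4%. The members therefore stood lower in ovary 1 than most genes did on this scale too, which their choice by a low ovary 1 value favours. Ovary 2 was highest for 178 members (72.4%, against 17.6% of the 6695 genes) and ovary 3 for 63 (25.6%, against 23.1%). The share for ovary 3 was thus near that of all these genes.

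Other scalings gave similar counts where they bring ovary 1 up, and more genes where they do not. The count of members with a spread of 4 or more was 18 with median ratios taken within each tissue (7.32%, against 0.851% of the 6695 genes). It was 20 with median ratios over the genes at 2 FPKM or more (8.13%, against 0.836%). It was 9 after quantile normalization (3.66%, against 0.239%), which gives all libraries one distribution. In TPM, where each library is rescaled to the same sum, it was 245 (99.6%, against 9.32%), since ovary 1 has the highest sum of FPKM and is lowered further. Across these 5 scalings 9 members kept the spread in all, and 226 kept it in TPM alone.

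**Figure D3:**
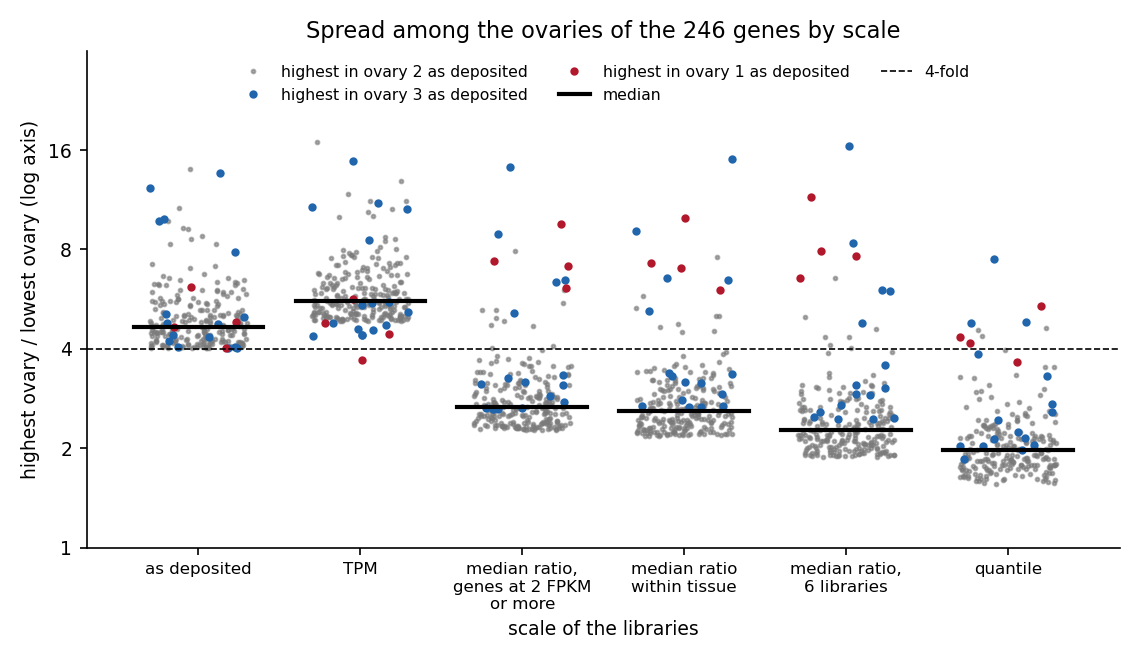
Highest ovary divided by lowest ovary for each of the 246 members on 6 scales (log axis), coloured by the ovary that is highest as deposited; black bars are medians and the dashed line is the limit of 4. The median is 4.66 as deposited, 5.56 in TPM and between 1.97 and 2.66 on the other 4 scales, where 9 to 20 members lie above the line.

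The 16 members with a spread of 4 or more after median-ratio scaling were spread over 12 linkage groups, and no one ovary led them. Of these, 7 were highest in ovary 2, 4 in ovary 3 and 5 in ovary 1 on the scaled values. They hold all 4 members that were highest in ovary 1 as deposited, 5 of the 16 highest in ovary 3, and 7 of the 226 highest in ovary 2. As deposited the 7 had spreads of 8.6 or more. The largest scaled spread, 16.5, belonged to the locus on linkage group 2 at 32953049, whose scaled FPKM was 62.9 in ovary 1, 3.81 in ovary 2 and 61.2 in ovary 3. Its testes stood at 3.87, 5.39 and 4.29. On this scale ovary 2 alone was low, at the level of the testes. SCSFRI_TO_T_00055689 followed with 44.7, 3.88 and 4.45 scaled FPKM in the ovaries, a spread of 11.5, and 1.25 to 1.54 in the testes. SCSFRI_TO_T_00074032 had 7.72, 7.9 and 64.5 in the ovaries, a spread of 8.36, and 4.58 to 5.37 in the testes.

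In each of these 3 genes 1 ovary stood apart and the others lay close together. SCSFRI_TO_T_00043020 had 8.28, 54.3 and 54.3 scaled FPKM in the ovaries and 13.2 to 15.0 in the testes, so ovary 1 alone was low. A locus on linkage group 5 (24405284 to 24597775) was at 3.52, 8.78 and 34.4 FPKM in the ovaries as deposited and 7.84 to 10.9 FPKM in the testes. Scaled, its ovaries stood at 11.2, 13.1 and 67.0, and again ovary 3 alone was high. SCSFRI_TO_T_00002388 had 975.2, 229.9 and 123.2 scaled FPKM in the ovaries, a spread of 7.92, against 4.84 as deposited. Scaling thus widened the spread of the genes that were high in ovary 1 and narrowed that of those low there.

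Applied anew to the median-ratio values, the rule found 44 genes. Of these, 9 were among the 246, which is 20.5% of the 44 and 3.66% of the 246. The highest ovary was ovary 2 for 21 of the 44, ovary 1 for 15 and ovary 3 for 8. The largest spread outside the 246 was on linkage group 1 (35713498 to 35764313), with 20.5, 9.33 and 2.33 scaled FPKM in the ovaries and 4.93 to 5.2 in the testes. On linkage group 11 (13382751 to 13411411) a gene had 368.5, 47.2 and 62.1 scaled FPKM in the ovaries and 16.01 to 17.0 in the testes, high in ovary 1 alone. The lists as deposited and on this scale thus share few genes, with the 2 FPKM minimum and the other limits applied to the scaled values. Of the 16 members that kept a spread of 4 or more, 7 failed another limit there. A gene can thus enter or leave the list by its scaled level alone.

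Which ovary lay closest to the testis level changed with the scale. On FPKM as deposited, the median member stood at 0.218 times its testis mean in ovary 1, at 1.01 times in ovary 2 and at 0.72 times in ovary 3. For the 6695 genes at 2 FPKM or more these medians were 0.62, 1.12 and 0.958. After median-ratio scaling the members' medians were 1.49, 3.23 and 3.01 times the testis mean, so that ovary 1 was then the closest, and those of the 6695 genes were 4.24, 3.58 and 4.0. After quantile normalization ovary 3 was the closest, with members' medians of 0.664, 1.3 and 1.1 times the testis mean, against 1.7, 1.69 and 1.7 for the 6695 genes.

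As deposited, ovary 1 exceeded the testis mean in 12 members (4.88%), ovary 2 in 124 (50.4%) and ovary 3 in 78 (31.7%), against 34.6%, 55.1% and 48.3% of the 6695 genes. The share for ovary 2 was thus near that of all these genes. After median-ratio scaling the counts were 175 (71.1%), 233 (94.7%) and 227 (92.3%), against 91.1%, 90.9% and 91.7%. On this scale the shares for ovaries 2 and 3 were near those of all genes. That for ovary 1 was lower, which the members' choice by a low ovary 1 value favours.

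The ratio of the ovary mean to the testis mean ran from 0.13 to 7.55 by member as deposited, with a median of 0.667, against 0.913 for the 6695 genes. After median-ratio scaling its median was 2.67, against 4.01. The ovary mean was above the testis mean in 69 members (28.0%) as deposited and in 225 (91.5%) after scaling, against 46.4% and 91.7% of the 6695 genes. On both scales the median ratio was lower in the members than in those genes, while its side of 1 turned with the scale. Ovary 1, the lowest ovary for 241 members as deposited, is part of the ovary mean. Their choice therefore favours a lower ratio, and nothing is read from it. As deposited the ratio was at most 0.25 in 21 members (8.54%, against 9.19% of the 6695 genes), above 0.25 and up to 1 in 156 (63.4%, against 44.4%), above 1 and up to 4 in 64 (26.0%, against 38.0%), and above 4 in 5 (2.03%, against 8.39%). The rule holds members above 0.1 and under 10, a limit not set on the 6695 genes. Of those genes, 7.18% lay from 0.1 to 0.25 and 5.86% from 4 to 10.

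In 106 members (43.1%) all testes lay inside the range of the ovaries on FPKM as deposited, which was so for 14.5% of the 6695 genes. Every testis was above every ovary in 99 members (40.2%), against 37.3% of those genes, and below every ovary in 6 members (2.44%), against 30.0%. After median-ratio scaling the testes lay inside the range of the ovaries in 46 members (18.7%, against 3.02% of the 6695 genes). They lay above every ovary in 9 (3.66%, against 4.41%) and below every ovary in 165 (67.1%, against 84.9%). A wide ovary range and a narrow testis range are the rule itself, so these shares are a description of how the members sit. Among the 16 members highest in ovary 3 the median ratio of ovary to testis as deposited was 2.1, and among the 226 highest in ovary 2 it was 0.621. It was 2.39 among the 4 highest in ovary 1, and 0.913 over the 6695 genes. These medians by highest ovary were taken on FPKM as deposited alone.

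**Figure D4:**
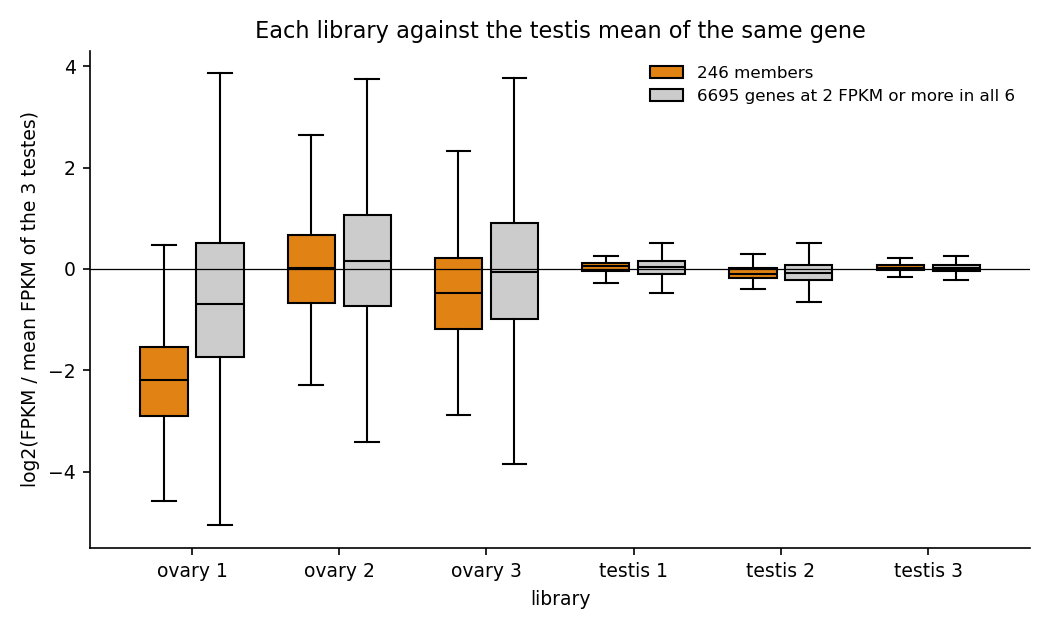
log2 of each library's FPKM over the mean of the 3 testes for the same gene, for the 246 members (orange) and for the 6695 genes at 2 FPKM or more in all 6 libraries (grey, members included); boxes span the quartiles, the line is the median and whiskers reach 1.5 times the box. The members' median is -2.2 in ovary 1 and 0.01 in ovary 2, against -0.69 and 0.16 for the 6695 genes.

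At the low end of the ratio, a gene on linkage group 2 (31468524 to 31484190) was at 2.46, 11.5 and 8.16 FPKM in the ovaries, against 59.0, 56.1 and 54.6 FPKM in the testes. Its ovary mean was 0.13 times its testis mean. A pair on linkage group 24 followed. The gene from 14886155 to 14899558 had 3.18, 12.8 and 8.67 FPKM in the ovaries and 62.5, 63.5 and 55.3 FPKM in the testes. The gene from 12317557 to 12319641 had 5.17, 21.8 and 12.6 FPKM in the ovaries and 98.0, 89.8 and 91.0 FPKM in the testes. In all 3 the highest ovary as deposited stayed far below the lowest testis while the ovaries kept the order of most members. That gap is narrower after median-ratio scaling, which raises the ovaries and lowers the testes. At the high end, after the locus on linkage group 18, came those on linkage groups 20 and 3 described above, with ratios of 6.21 and 5.69.

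A limma fit of ovary over testis covered 17206 genes (log2(FPKM + 1), Benjamini-Hochberg adjusted p under 0.05). It uses the same values as the rule, which bounds the ratio of means and asks for a wide spread in one tissue, so the members' counts in it are given for completeness and nothing is read from them. As deposited, 9 members were called higher in ovary and 81 lower, while 156 did not pass, and 13.4% of all tested genes were called higher in ovary and 68.2% lower. Median-ratio scaling moved the median log2 fold change of all tested genes from -1.43 as deposited to -0.08, so calls on either scale are relative to that shift. With it 168 members were called higher in ovary, against 40.8% of all tested genes, and 4 lower, against 43.2%. The shares in brackets that follow are also those of all tested genes. With median ratios over the genes at 2 FPKM or more the counts were 20 higher (16.2%) and 103 lower (68.8%), with TPM 2 (8.19%) and 130 (74.9%), and after quantile normalization 83 (34.4%) and 64 (39.9%).

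Members were found on all 24 linkage groups, and none lay outside them. They made up 3.67% of the genes at 2 FPKM or more in all 6 libraries. By linkage group this share ran from 0.386% on linkage group 13, where 1 of 259 genes was a member, to 7.6% on linkage group 24, where 19 of 250 were. Linkage group 21 had 11 of 189 (5.82%) and linkage group 23 had 9 of 156 (5.77%). The shares were not tested. All 19 members of linkage group 24 had the order ovary 2, ovary 3, ovary 1, and they were scattered from 928674 to 14899558.

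**Figure D5:**
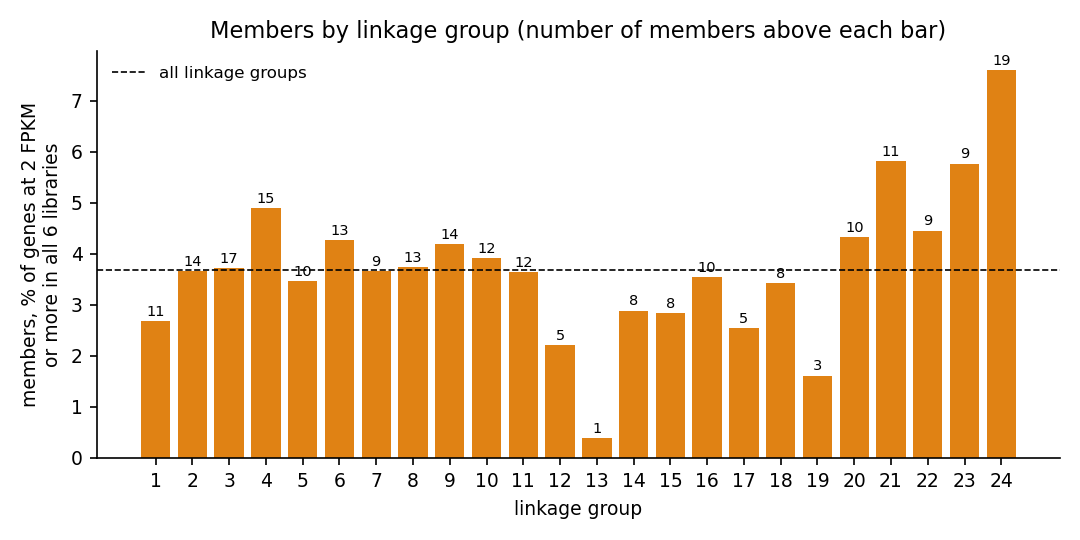
Members as a percentage of the genes at 2 FPKM or more in all 6 libraries on each of the 24 linkage groups, with the number of members above each bar; the dashed line is the share over all linkage groups, 3.67%. Linkage group 24 has the highest share (7.6%) and linkage group 13 the lowest (0.386%).

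The members' spans, introns included, were like those of other genes at this level. The median span was 8354 bp in members, from 970 to 233121 bp, and 8243 bp in the 6695 genes. The span of another gene overlapped that of 90 members (36.6%), against 39.0% of the 6695 genes. Reads can be divided between overlapping gene models, and whether strand was used in counting is not given in the sources used here. Of the overlapping genes, 50 were at 2 FPKM or more in all 6 libraries and not members. They belonged to 44 members and had a median ovary spread of 1.65, from 1.09 to 3.47, close to the 1.75 of the 6695 genes. Members are left out of the 50 but included in the 6695 genes, which favours a lower spread in the 50. Ovary 2 exceeded ovary 1 in 45 of these 50 (90.0%), near the 86.2% of the 6695 genes in which it did.

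Members overlapped each other in 3 pairs. On linkage group 3 the gene from 29993532 to 30013742 had 2.7, 12.3 and 8.41 FPKM in the ovaries and 22.6, 24.4 and 24.8 FPKM in the testes, and holds the abundant gene at 29993685 described above. On linkage group 10 a gene (5698365 to 5702448) had 6.78, 29.1 and 26.4 FPKM in the ovaries and 26.1, 27.6 and 26.6 FPKM in the testes. The gene that overlaps its end (5702200 to 5708553) had 3.84, 17.8 and 11.6 FPKM in the ovaries and 11.8, 9.8 and 10.8 FPKM in the testes. On linkage group 15 a gene (12825758 to 12855829) had 3.06, 13.7 and 10.5 FPKM in the ovaries and 14.1, 11.8 and 13.3 FPKM in the testes. The gene inside its span (12835697 to 12840715) had 3.17, 14.5 and 15.1 FPKM in the ovaries, close to the values of the outer gene, but 3.6, 2.74 and 3.57 FPKM in the testes. Members of a pair can share reads, and both genes of each pair are included in the counts of members given here.

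Members lay next to each other at about the share of all genes. Among genes at 2 FPKM or more in all 6 libraries, the next gene along the linkage group was a member for 8 of 245 members (3.27%), against 3.69% of all such genes. Of the 8 pairs, 5 had separate spans. The closest, on linkage group 6, was 523 bp apart. Its first gene (3621825 to 3624535) had 20.6, 144.4 and 108.2 FPKM in the ovaries and 31.0, 31.0 and 24.6 FPKM in the testes. Its second gene (3625059 to 3640413) had 3.44, 14.2 and 9.24 FPKM in the ovaries and 13.7, 10.1 and 13.1 FPKM in the testes. The ovaries ran in the same order in both, and the testes lay low in the range of the first and high in that of the second. A pair on linkage group 2, 3380 bp apart, was alike throughout. The gene from 37355178 to 37363607 had 6.03, 35.0 and 24.0 FPKM in the ovaries and 37.2, 30.9 and 35.6 FPKM in the testes, and that from 37366988 to 37367957 had 6.33, 32.01 and 20.4 FPKM in the ovaries and 34.4, 28.7 and 34.3 FPKM in the testes.

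With the tissues exchanged, the rule on FPKM as deposited found 1 gene, against 246. This gene, on linkage group 17 (5605378 to 5608704), was at 8.12, 9.41 and 6.58 FPKM in the ovaries and 5.26, 97.5 and 7.07 FPKM in the testes, so testis 2 alone was high. As deposited, the testes differed by 4 times or more in 24 of the 6695 genes at 2 FPKM or more, and the ovaries in 326. The ovary count depended on the scale, with 81 after median-ratio scaling, 16 after quantile normalization and 624 in TPM. The testis count was not taken on those scales. Whether the tissues differ in spread was not tested.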

How the data were processed

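RNA of 3 ovaries and 3 testes was profiled by sequencing (Trizol extraction and Illumina libraries, per the labels' protocols). The authors deposited 1 table of FPKM values with a column for each library. The aligner HISAT2 2.0.4 and, for transcripts, StringTie 1.3.3b appear per the submitters' processing notes, without settings. Genome build, annotation and filters: not given in the sources used here. There were 0 columns of no sample. The unit is not a count, so no count model or counting interval was used, and the precision rests on 3 fish per tissue.

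Members, lists and tests were chosen with earlier results of these data known. The rule was applied to FPKM as deposited and to values scaled by median ratios (genes above 0 in all 6 libraries), by median ratios within each tissue, to TPM and by quantile normalization of log2(FPKM + 1), in Python 3.11.15 with pandas 2.3.3. Median ratios over genes at 2 FPKM or more were added after the data were seen. Ovary over testis was fitted with limma 3.58.1 in R 4.3.3 (lmFit and eBayes with trend, two-sided) on log2(FPKM + 1), pseudocount 1, for genes with 3 or more of 6 libraries at 1 FPKM or above. All 246 members pass this filter by the rule. The limma step and the scaling were run on simulated data with known changes. There most genes were unchanged and both tissues had equal spread, unlike here, so those runs do not show how well either step suits these data. Loci named are, for each ovary, the 3 members highest there with the largest spread and the 3 with the highest mean, the 3 highest and the 3 lowest ratios of means, genes at the limits, and members that overlap. The loci kept after scaling and the neighbours were chosen after their values were seen. No marker list was used, as the table gives no gene names. Same-numbered ovaries and testes come from different fish.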

Additional observations from a re-analysis of the deposited data

How the results depend on the processing

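The rule gave 246 genes as deposited, 44 with median ratios over 6 libraries, 35 within each tissue, 41 over genes at 2 FPKM or more, 602 with TPM and 9 after quantile normalization, of which 9, 14, 18, 239 and 4 were members. It gave 427 with a minimum of 1 FPKM, 75 with 5 FPKM, 690 with an ovary spread of 3 and 36 with 6, and 5 to 311 with 1 library left out. Members highest in ovary 3 numbered 63 with median ratios over 6 libraries and 36 within each tissue, against 16 as deposited. Over the 6695 genes ovary 3 was highest for 23.1%, 22.7% and 17.3% on these scales, in that order. Members past the threshold of limma numbered 90 (9 higher in ovary, 81 lower), 172 with median ratios over 6 libraries (168 and 4) and 147 after quantile normalization (83 higher). Those higher in ovary numbered 2 without a filter, 2 with TPM and 20 with median ratios over genes at 2 FPKM or more, and those lower in ovary 130 with TPM. Without a filter 2354 of all 22062 tested genes were called higher in ovary. Without 1 library the limma counts were 54 to 142 in all, 2 to 56 higher in ovary and 52 to 135 lower, with the highest counts without ovary 1 (142 and 56) and without ovary 2 (135 lower). Without ovary 3 the counts were 79, 3 and 76, and without testis 1, 2 or 3 they were 54, 55 and 56 in all. Of all 17206 tested genes, the fits without 1 library called 1980 to 2964 higher in ovary and 11026 to 12227 lower. Nothing is read from the members' counts. In all, 36 of 74 alternative values moved by over 1.5 times, and no cause of these moves was tested. Counts under a changed limit of the rule can move by that change alone. With the replicate block 97 members passed, 11 higher in ovary and 86 lower, against 2193 and 11607 of all 17206 tested genes. Deviations from the tissue means correlated across genes at r = 0.009, -0.001 and -0.059 for numbers 1, 2 and 3, and the numbers tie no fish. Unknown depth leaves counting error unmeasured for members near 2 FPKM in ovary 1.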
